A study of Homo sapiens with 24 samples.

Results

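SCEL, TMEM255A, ZBED2 and LINC01133 are 4 of the 25365 gene rows in a table of expression levels from the lung cancer lines HCC4006 and PC9. They were chosen by measured values, because each was lower in YAP1 knockout (YAP1 KO) than in control (CTRL) cells of both lines in at least one treatment, and because none belongs to the classic YAP signature. Their differences between YAP1 KO and CTRL cells are therefore given as a description, with no test. Of 11842 genes tested in both lines, 1062 (8.97%) were lower in YAP1 KO cells of both lines in at least one treatment, so the 4 are a selection from a much larger set. Both lines are established lung adenocarcinoma lines with an activating EGFR mutation. Cells were treated for 24 hours with OT, which is the EGFR inhibitor osimertinib at 100 nM plus the MEK inhibitor trametinib at 30 nM, or with the solvent DMSO. The 8 groups were YAP1 KO OT, CTRL OT, YAP1 KO DMSO and CTRL DMSO cells of each line, with 3 dishes and 3 mRNA libraries per group and 24 libraries in all. Each line had 1 YAP1 KO population, and all its dishes came from the same cells, so p-values measure the spread between dishes.

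YAP1 is a coactivator of transcription that the Hippo kinases hold out of the nucleus, and it reaches DNA mainly through TEAD transcription factors, often at enhancers that also carry AP-1 sites. The 4 genes have unlike roles. SCEL encodes sciellin, a precursor protein of the cornified envelope of stratified epithelia. TMEM255A encodes a transmembrane protein whose function is little known. ZBED2 encodes a zinc-finger transcription factor of the BED family, derived from transposases, that has been described in pancreatic cancer cells as a repressor of genes activated by IRF1. LINC01133 is a long intergenic non-coding RNA.

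Levels are FPKM as the authors deposited them, that is, fragments counted on a gene divided by its transcript length and by the library's mapped fragments. YAP1 itself, the targeted gene, had 5.97 to 6.34 FPKM in HCC4006 YAP1 KO OT libraries against 13.9 to 16.9 in CTRL OT, and 3.90 to 4.59 in YAP1 KO DMSO against 16.5 to 19.7 in CTRL DMSO. In PC9 it had 10.1 to 11.6 FPKM in YAP1 KO OT libraries against 33.8 to 34.5 in CTRL OT, and 11.6 to 12.4 in YAP1 KO DMSO against 42.5 to 43.3 in CTRL DMSO. YAP1 RNA was thus lower in every library labelled YAP1 KO, and was not at 0. FPKM summed to 507094 to 660434 per library, absolute depth is unknown, and relative depth ran from 0.945 to 1.42. Of 9 lung adenocarcinoma and epithelial markers, 8 or 9 averaged at least 1 FPKM in each HCC4006 group and 7 in each PC9 group, where NKX2-1 reached at most 0.938 FPKM and NAPSA at most 0.627. Of 10 leukocyte markers, PTPRC and CD3D reached at most 0.0516 and 0 FPKM in any library. The 10 together summed to 29.7 to 40.05 FPKM in PC9 libraries, where 1 of them averaged at least 1 FPKM in each group. In HCC4006 libraries they summed to 21.9 to 24.95 FPKM with DMSO and 83.9 to 112 with OT.

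The sequences upstream of the 4 genes are shown because the genes were chosen for a difference in a coactivator that works through DNA-bound factors. They were taken from RefSeq on GRCh38.p14, reach up to 250 bases before each RefSeq start and stop before any annotated exon. Capitals mark the match to a searched motif. SCEL lies on the plus strand of chromosome 13, and its sequence is chr13:77535456-77535673. TMEM255A lies on the minus strand of chromosome X (chrX:120311557-120311711), ZBED2 on the minus strand of chromosome 3 (chr3:111595444-111595596) and LINC01133 on the plus strand of chromosome 1 (chr1:159960974-159961217).
SCEL: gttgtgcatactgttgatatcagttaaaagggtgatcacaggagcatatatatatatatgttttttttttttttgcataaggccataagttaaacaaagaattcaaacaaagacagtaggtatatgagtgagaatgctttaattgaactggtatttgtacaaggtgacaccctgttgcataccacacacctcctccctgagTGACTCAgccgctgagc
TMEM255A: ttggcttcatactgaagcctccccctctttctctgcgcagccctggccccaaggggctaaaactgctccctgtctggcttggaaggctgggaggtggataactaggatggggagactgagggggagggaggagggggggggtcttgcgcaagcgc
ZBED2: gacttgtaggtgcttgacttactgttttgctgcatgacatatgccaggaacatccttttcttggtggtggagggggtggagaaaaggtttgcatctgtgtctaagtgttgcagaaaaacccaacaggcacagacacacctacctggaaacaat
LINC01133: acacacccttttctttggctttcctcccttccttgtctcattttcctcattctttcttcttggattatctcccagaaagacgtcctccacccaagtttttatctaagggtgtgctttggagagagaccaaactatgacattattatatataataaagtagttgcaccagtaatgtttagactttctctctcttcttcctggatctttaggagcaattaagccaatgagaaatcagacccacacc
Over the full 250 bases and both strands, 3 motifs that do not overlap one another were searched. GGAATG, the core bound by TEAD factors, was in none of the 4 and is in 11.9% of 35116 RefSeq promoters of that length. The interferon-stimulated response element (GAAA, any 2 bases, GAAA) was in none and is in 3.02%. TGANTCA, the AP-1 site, was in SCEL, as TGACTCA on the gene's own strand 49 to 43 bases before the start, and is in 6.57%. The share of G and C in the 250 bases was 37.6% for SCEL, 64.8% for TMEM255A, 49.6% for ZBED2 and 39.6% for LINC01133.

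**Figure D1:**
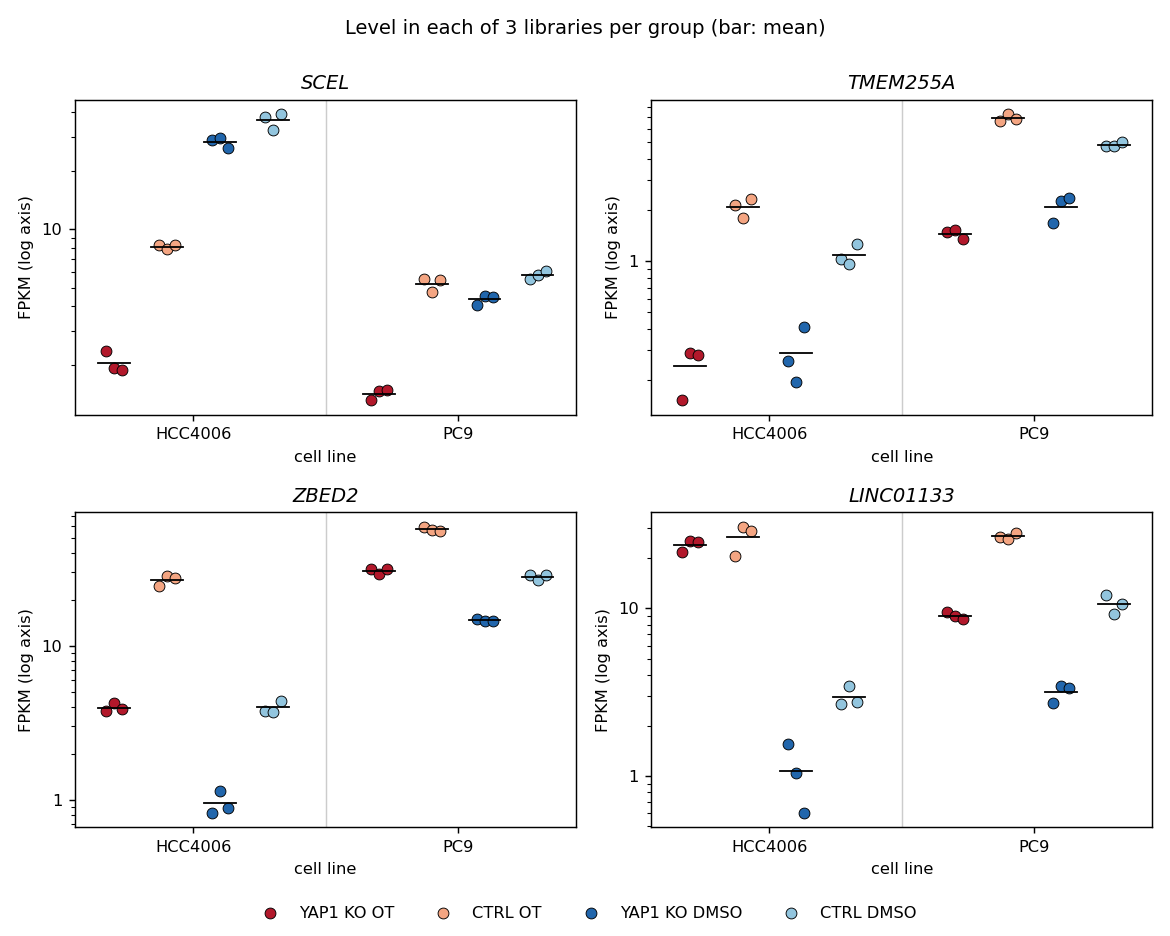
FPKM on a log axis in each of the 3 libraries per group (points) with the group mean (bar), for HCC4006 on the left and PC9 on the right of each panel. In all 4 panels the YAP1 KO points lie below the CTRL points of the same line and treatment, except for LINC01133 in HCC4006 under OT, where 21.6 to 25.1 FPKM in YAP1 KO libraries overlap 20.7 to 30.8 in CTRL libraries.

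SCEL was lower in YAP1 KO cells mainly under OT. In HCC4006 it had 2.35, 1.92 and 1.88 FPKM in YAP1 KO OT libraries, against 8.27, 7.86 and 8.24 in CTRL OT libraries. Under DMSO it had 28.8, 29.5 and 26.1 FPKM in YAP1 KO libraries, against 37.8, 32.5 and 39.1 in CTRL libraries. None of these groups overlapped, and YAP1 KO cells held 25.3% of the CTRL mean under OT and 77.2% under DMSO. In PC9 it had 1.31, 1.47 and 1.48 FPKM in YAP1 KO OT libraries, against 5.50, 4.73 and 5.45 in CTRL OT libraries. With DMSO the values were 4.07, 4.51 and 4.46 FPKM in YAP1 KO PC9 libraries, against 5.51, 5.78 and 6.06 in CTRL PC9 libraries. The PC9 groups did not overlap either, and YAP1 KO cells held 27.2% of the CTRL mean under OT and 75.2% under DMSO. The 2 lines thus kept nearly the same share of this envelope precursor in each treatment, although HCC4006 DMSO cells had 6.47 times the PC9 level in YAP1 KO and 6.31 times in CTRL cells. On the log2(FPKM + 1) scale, YAP1 KO minus CTRL was -1.58 under OT and -0.36 under DMSO in HCC4006 (SE 0.0791), and -1.36 and -0.34 in PC9 (SE 0.0621). In bulk RNA, fewer cells that express a gene and less of its RNA per cell cannot be told apart, here and for each value that follows.

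Within each genotype SCEL was lower with OT than with DMSO, and the gap was wider in YAP1 KO cells. OT cells had 13.7-fold less SCEL than DMSO cells in HCC4006 YAP1 KO and 4.49-fold less in HCC4006 CTRL. In PC9 the gap was 3.06-fold in YAP1 KO and 1.11-fold in CTRL, where the highest OT library (5.50 FPKM) lay just under the lowest DMSO library (5.51 FPKM). For scale, limma called 36.5% of all tested genes lower with OT in YAP1 KO and 36.6% in CTRL cells of HCC4006, and 41.4% and 40.9% in PC9. The genotypes' OT responses differed, YAP1 KO minus CTRL, by -1.22 (SE 0.112) in HCC4006 and -1.02 (SE 0.0878) in PC9 on the log2 scale. Across the 8 groups the order of means ran from 36.5 FPKM in HCC4006 CTRL DMSO through 28.1, 8.12, 5.78, 5.22, 4.35 and 2.05 to 1.42 FPKM in PC9 YAP1 KO OT, and no neighbours in that order had overlapping libraries.

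TMEM255A did not exceed 7.30 FPKM in any library, and its YAP1 KO levels were under those of CTRL cells throughout. In HCC4006 it had 0.152, 0.290 and 0.282 FPKM in YAP1 KO OT libraries, against 2.14, 1.78 and 2.33 in CTRL OT libraries. After DMSO it had 0.260, 0.196 and 0.411 FPKM in YAP1 KO libraries, against 1.02, 0.962 and 1.27 in CTRL libraries. The genotypes did not overlap, and YAP1 KO cells held 11.6% of the CTRL mean under OT and 26.7% under DMSO. In HCC4006, 5 of 12 libraries reached 1 FPKM, all of them CTRL, so the gene passed the filter on low values in that line only through its CTRL libraries. In PC9 it had 1.47, 1.52 and 1.34 FPKM in YAP1 KO OT libraries, against 6.61, 7.30 and 6.87 in CTRL OT libraries. In DMSO it measured 1.67, 2.27 and 2.35 FPKM in YAP1 KO PC9 libraries, against 4.71, 4.77 and 4.998 in CTRL PC9 libraries. The PC9 genotypes did not overlap, and YAP1 KO cells held 20.9% of the CTRL mean under OT and 43.4% under DMSO. The log2 differences between YAP1 KO and CTRL were -1.31 under OT and -0.69 under DMSO in HCC4006 (SE 0.0930), and -1.70 and -0.92 in PC9 (SE 0.0787). With pseudocounts of 0.1 and 0.01 the HCC4006 differences were -2.70 and -3.10 under OT and -1.63 and -1.92 under DMSO.

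The genotypes differed in which treatment had more TMEM255A. In CTRL cells, OT libraries lay above DMSO libraries in both lines without overlap, by 1.92-fold in HCC4006 and 1.44-fold in PC9. In YAP1 KO cells, OT libraries overlapped DMSO libraries in HCC4006, and in PC9 they lay below them at 0.691 of the DMSO mean. The log2 response of YAP1 KO cells minus that of CTRL cells was -0.62 (SE 0.132) in HCC4006 and -0.78 (SE 0.111) in PC9. With pseudocounts of 0.1 and 0.01 it was -1.06 and -1.18 in HCC4006, and with 0.01 it was -1.04 in PC9, so which line had the larger value depends on the pseudocount. Over all tested genes, 46.4% were called higher with OT in YAP1 KO and 45% in CTRL cells of HCC4006, and 36.9% and 32% in PC9. PC9 CTRL OT stood highest of the 8 groups at 6.93 FPKM and HCC4006 YAP1 KO OT lowest at 0.241 FPKM. Neighbours in the order overlapped for PC9 YAP1 KO DMSO with HCC4006 CTRL OT and for the 2 HCC4006 YAP1 KO groups.

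ZBED2 was lower in YAP1 KO cells by a factor that was steady in PC9 and larger in HCC4006. In HCC4006 it had 3.76, 4.25 and 3.91 FPKM in YAP1 KO OT libraries, against 24.4, 28.6 and 27.8 in CTRL OT libraries. The levels in DMSO were 0.821, 1.14 and 0.891 FPKM in YAP1 KO libraries, against 3.80, 3.75 and 4.40 in CTRL libraries. No genotypes overlapped, and YAP1 KO cells held 14.8% of the CTRL mean under OT and 23.9% under DMSO. In PC9 it had 31.5, 29.3 and 31.6 FPKM in YAP1 KO OT libraries, against 59.5, 56.8 and 55.8 in CTRL OT libraries. With DMSO it was at 14.9, 14.6 and 14.4 FPKM in YAP1 KO PC9 libraries, against 28.98, 26.6 and 28.9 in CTRL PC9 libraries. Again no genotypes overlapped, and YAP1 KO cells held 53.7% of the CTRL mean under OT and 51.9% under DMSO. The log2 differences were -2.49 under OT and -1.35 under DMSO in HCC4006 (SE 0.0829), and -0.88 and -0.90 in PC9 (SE 0.0419). With a pseudocount of 0.01 the HCC4006 difference under DMSO was -2.06.

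OT libraries had more ZBED2 than DMSO libraries in both genotypes of both lines, with no overlap. The ratio of OT to DMSO means was 4.18 in YAP1 KO and 6.76 in CTRL cells of HCC4006, and 2.11 in YAP1 KO and 2.04 in CTRL cells of PC9. YAP1 KO minus CTRL, the log2 responses to OT differed by -1.13 (SE 0.117) in HCC4006 and by 0.02 (SE 0.0592) in PC9. The HCC4006 value was -0.76 with a pseudocount of 0.1 and -0.69 with 0.01. HCC4006 YAP1 KO OT cells and HCC4006 CTRL DMSO cells had overlapping libraries, with means of 3.97 and 3.98 FPKM. In PC9, YAP1 KO OT libraries, at a mean of 30.8 FPKM, lay just above CTRL DMSO libraries, at 28.2 FPKM. Over the 8 groups ZBED2 ranged from 57.3 FPKM in PC9 CTRL OT down to 0.952 FPKM in HCC4006 YAP1 KO DMSO.

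LINC01133 was lower in YAP1 KO cells of PC9 in both treatments and of HCC4006 under DMSO. In HCC4006 it had 21.6, 25.1 and 24.9 FPKM in YAP1 KO OT libraries, against 20.7, 30.8 and 28.8 in CTRL OT libraries. In the solvent it had 1.55, 1.04 and 0.600 FPKM in YAP1 KO libraries, against 2.67, 3.44 and 2.76 in CTRL libraries. The genotypes overlapped under OT, where YAP1 KO cells held 89.2% of the CTRL mean, and did not overlap under DMSO, where they held 36.02%. In PC9 it had 9.57, 8.97 and 8.65 FPKM in YAP1 KO OT libraries, against 26.8, 25.9 and 28.3 in CTRL OT libraries. With DMSO it had 2.72, 3.46 and 3.34 FPKM in YAP1 KO PC9 libraries, against 11.98, 9.20 and 10.6 in CTRL PC9 libraries. The PC9 genotypes did not overlap, and YAP1 KO cells held 33.5% of the CTRL mean under OT and 29.9% under DMSO. The log2 differences were -0.14 under OT and -0.96 under DMSO in HCC4006 (SE 0.169), and -1.48 and -1.47 in PC9 (SE 0.0868). The HCC4006 difference under DMSO was -1.47 with a pseudocount of 0.1 and -1.56 with 0.01. Under OT it was -0.31, -0.04 and -0.08 without replicates 1, 2 and 3 of CTRL OT, and -0.07 without replicate 1 of YAP1 KO OT.

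In HCC4006 the non-coding RNA had the widest gap between treatments of the 4 genes. OT means were 22.4 times the DMSO means in HCC4006 YAP1 KO cells and 9.05 times in HCC4006 CTRL cells. In PC9 the ratios were 2.86 in YAP1 KO and 2.55 in CTRL cells, and in neither line did OT and DMSO libraries of a genotype overlap. On the log2 scale the YAP1 KO response minus the CTRL response was 0.82 (SE 0.239) in HCC4006 and -0.01 (SE 0.123) in PC9. With pseudocounts of 0.1 and 0.01 the HCC4006 value was 1.32 and 1.41. Under OT the libraries of PC9 CTRL, HCC4006 CTRL and HCC4006 YAP1 KO cells overlapped in the order of means, at 27.0, 26.8 and 23.9 FPKM, while PC9 YAP1 KO OT cells stood apart at 9.06 FPKM. The lowest group was HCC4006 YAP1 KO DMSO, at 1.07 FPKM.

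**Figure D2:**
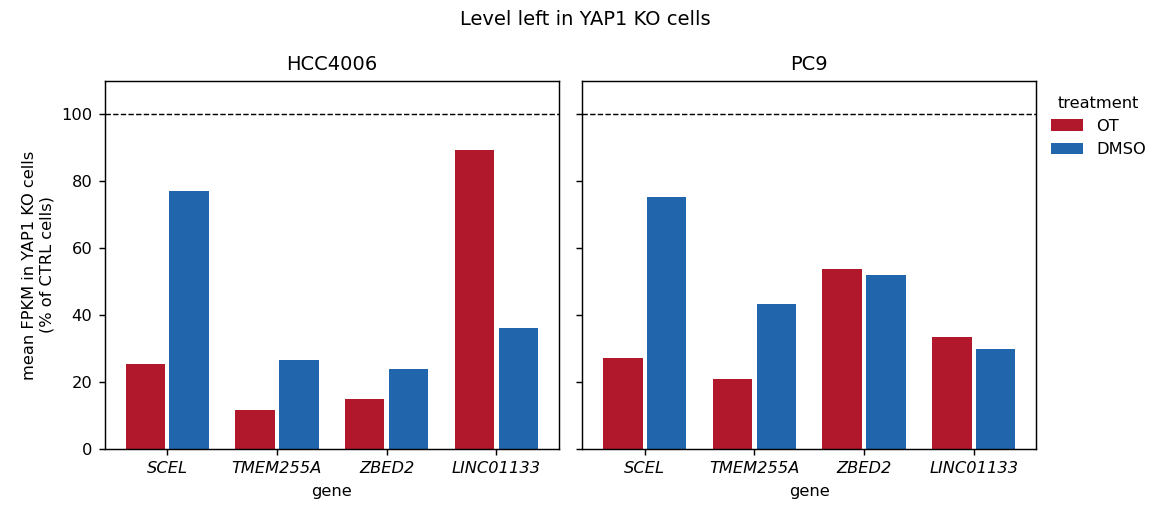
Mean FPKM in YAP1 KO cells as a percentage of the CTRL mean of the same line and treatment (bars, each from 3 libraries per group; the dashed line marks 100%). SCEL is at 25.3% and 27.2% under OT against 77.2% and 75.2% under DMSO in HCC4006 and PC9, ZBED2 in PC9 is at 53.7% under OT and 51.9% under DMSO, and LINC01133 reaches 89.2% in HCC4006 under OT.

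Libraries of YAP1 KO cells lay wholly below those of CTRL cells for each gene, line and treatment, except LINC01133 under OT in HCC4006. These comparisons chose the genes, so nothing is read from that. The share of all genes with groups apart was not counted. A limma call with Benjamini-Hochberg adjustment is another measure. By it, 16.4% of tested genes were lower in HCC4006 under OT and 8.65% under DMSO, and 25.2% and 20% in PC9. LINC01133 entered through DMSO alone, since its difference of -0.14 under OT in HCC4006 was smaller than its SE of 0.169. The smallest differences that met the choice were those of SCEL under DMSO, at -0.36 in HCC4006 and -0.34 in PC9. Counted from the lowest difference, ZBED2 ranked 28 of 13110 genes in HCC4006 under OT and LINC01133 36 of 12681 in PC9 under DMSO. SCEL under DMSO ranked 557 in HCC4006 and 1021 in PC9, where 1134 and 2538 genes were called lower, and LINC01133 under OT in HCC4006 ranked 2803, where 2154 were. CTGF, a widely used YAP reporter, was lower in YAP1 KO cells of HCC4006 in both treatments. Its means there were 3.46 FPKM against 47.3 in CTRL cells under OT, and 15.2 against 24.2 under DMSO. In PC9 CTGF differed in direction between treatments. It averaged 8.31 ± 0.262 FPKM in YAP1 KO OT and 18.8 ± 2.70 in CTRL OT cells, and 11.9 ± 1.17 in YAP1 KO DMSO and 8.88 ± 0.424 in CTRL DMSO cells (SD, n = 3 each), with log2 differences of -1.08 and 0.38 that both passed limma's test.

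Of 5 markers of squamous and basal epithelium, 2 were tested in PC9, KRT5 and KRT14, and both were lower in YAP1 KO cells under OT and under DMSO. The summed FPKM of the 5 markers was 5.89 to 7.02 in YAP1 KO OT libraries against 27.3 to 28.9 in CTRL OT, and 5.53 to 6.25 in YAP1 KO DMSO against 30.1 to 33.9 in CTRL DMSO. KRT5, a basal keratin, made up most of the sum, at 4.52 to 5.64 FPKM in YAP1 KO and 24.6 to 32.4 FPKM in CTRL libraries, while DSG3 stayed at or under 0.0277 FPKM in both. TP63, the transcription factor of basal cells, was too low to be tested in PC9 and did not follow KRT5, at 0.0328 to 0.101 FPKM in YAP1 KO OT against 0.0123 to 0.120 in CTRL OT, and at 0.463 to 0.575 in YAP1 KO DMSO against 0.362 to 0.445 in CTRL DMSO. In HCC4006 the sum was 6.92 to 7.13 in YAP1 KO OT against 5.30 to 5.93 in CTRL OT, and 3.92 to 4.30 in YAP1 KO DMSO against 4.73 to 5.06 in CTRL DMSO. Fibroblast markers moved with genotype in HCC4006, where the sum of 9 was 7.32 to 7.77 FPKM in YAP1 KO OT against 20.9 to 22.1 in CTRL OT, and 2.52 to 2.96 in YAP1 KO DMSO against 5.61 to 6.23 in CTRL DMSO. Of the 3 tested, COL1A2 and THY1 were lower in YAP1 KO cells in both treatments and COL1A1 did not pass. In PC9 the fibroblast sum was 2.35 to 2.73 in YAP1 KO OT against 1.90 to 2.30 in CTRL OT, and 1.55 to 1.71 in YAP1 KO DMSO against 1.42 to 1.63 in CTRL DMSO. The sum of the 9 lung adenocarcinoma and epithelial markers was lower in YAP1 KO than in CTRL libraries, without overlap, in both treatments of both lines. In HCC4006 it was 3227 to 3275 FPKM against 4436 to 4819 under OT, and 4916 to 5201 against 6070 to 6416 under DMSO. In PC9 it was 7808 to 8032 against 9326 to 9620 under OT, and 5880 to 6058 against 6508 to 6654 under DMSO. In each line 1 tested marker of the 9 was called higher under OT, and 1 in PC9 under DMSO. The part of these cells or states in the levels of SCEL, TMEM255A, ZBED2 and LINC01133 was not tested.

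The response to OT averaged over the 2 genotypes takes nothing from the difference between YAP1 KO and CTRL cells, so it was tested. TMEM255A passed the filter on low values in HCC4006 only through CTRL OT, its highest group there, so its HCC4006 response is a description. In HCC4006, SCEL, ZBED2 and LINC01133 passed limma's test with Benjamini-Hochberg adjustment over all genes, 2 higher and 1 lower with OT, where 48.6% of the 13110 tested genes were higher and 39% lower. In PC9, 3 of the 4 genes passed, 2 higher and 1 lower, where 38.4% of the 12681 tested genes were higher and 44.1% lower. Calls were thus common among all genes. The median over all tested genes was 0.10 in HCC4006 and -0.03 in PC9 on the log2(FPKM + 1) scale. When libraries were scaled to the same sum, the HCC4006 median was 0.28.

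SCEL fell with OT, at -2.65 on the log2 scale in HCC4006 (SE 0.0559, limma adjusted p = 2.87e-13) and -0.63 in PC9 (SE 0.0439, adjusted p = 3.14e-08). All 3 OT libraries lay below all 3 DMSO libraries in each genotype of each line. The PC9 average joins -1.14 in YAP1 KO cells with -0.13 in CTRL cells (SE 0.0621 each). The PC9 CTRL value was -0.07 without replicate 2 of CTRL OT, and also -0.07 with same-sum scaling. ZBED2 rose by 1.92 in HCC4006 (SE 0.0586, adjusted p = 8.21e-12) and by 1.01 in PC9 (SE 0.0296, adjusted p = 8.28e-12). LINC01133 rose by 3.20 in HCC4006 (SE 0.119, adjusted p = 5.32e-11) and by 1.28 in PC9 (SE 0.0613, adjusted p = 9.05e-10). Both genes were higher in all OT libraries than in all DMSO libraries of the same genotype and line. TMEM255A did not pass in PC9, at 0.06 (SE 0.0557, adjusted p = 0.365), and its average in HCC4006 was 0.26 (SE 0.0658). Both averages join CTRL cells with more TMEM255A under OT and YAP1 KO cells in which OT libraries did not lie above DMSO libraries.

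Some markers of other cell types were higher with OT in HCC4006 as well. The summed FPKM of 10 leukocyte markers was 109.7 to 112 in YAP1 KO OT against 21.97 to 24.2 in YAP1 KO DMSO libraries, and 83.9 to 86.6 in CTRL OT against 21.9 to 24.95 in CTRL DMSO libraries. CD68, a lysosomal membrane protein, gave most of it, while 2 or 3 of the 10 averaged at least 1 FPKM in OT groups and 1 in DMSO groups, and CD3D was at 0 in every library. The fibroblast sum was 7.32 to 7.77 FPKM in YAP1 KO OT against 2.52 to 2.96 in YAP1 KO DMSO, and 20.9 to 22.1 in CTRL OT against 5.61 to 6.23 in CTRL DMSO. Of the 3 fibroblast markers tested, COL1A2 and COL1A1 rose with OT, while THY1 fell, at a mean of 0.0168 FPKM in YAP1 KO OT against 0.128 in YAP1 KO DMSO and 1.69 in CTRL OT against 2.19 in CTRL DMSO. COL1A2 averaged 15.4 FPKM of the sum in CTRL OT libraries. The sum of 4 endothelial markers was 4.61 to 6.68 FPKM with OT against 0.224 to 0.397 with DMSO, most of it KDR. The part of these markers' cell types in the OT responses of the 4 genes was not tested.

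**Figure D3:**
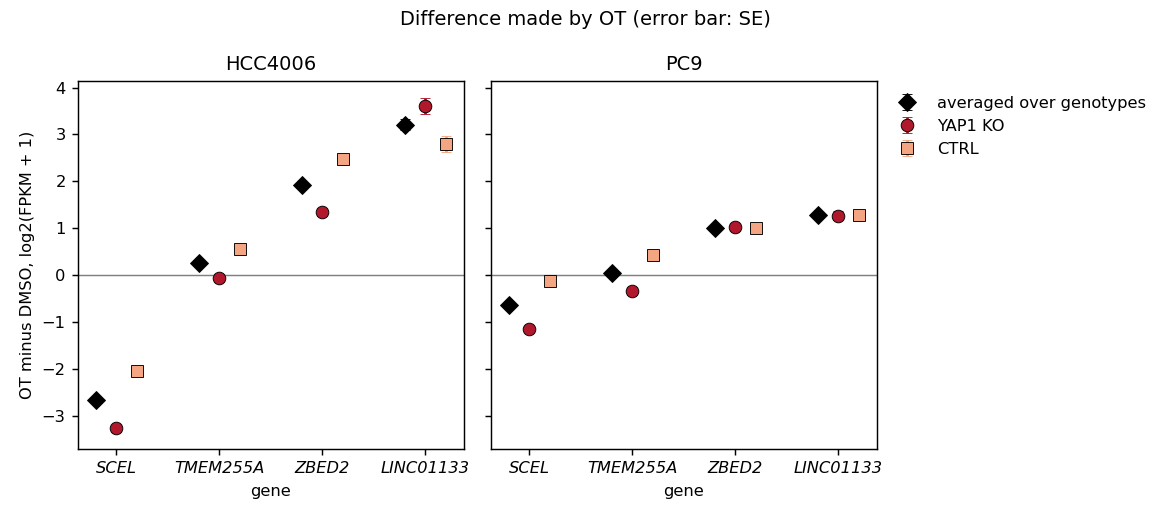
OT minus DMSO on the log2(FPKM + 1) scale for each gene, averaged over genotypes (black diamonds, the tested value except for TMEM255A in HCC4006), in YAP1 KO cells (circles) and in CTRL cells (squares), with standard errors. Averaged values run from -2.65 for SCEL to 3.20 for LINC01133 in HCC4006 and from -0.63 to 1.28 in PC9, and the circles lie below the squares for SCEL and TMEM255A in both lines and for ZBED2 in HCC4006.

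The averaged OT response of SCEL, ZBED2 and LINC01133 differed between the lines, in a fit of all 24 libraries in which 44.3% of 11842 genes had a higher and 30.4% a lower response in HCC4006 than in PC9. The difference, HCC4006 minus PC9, was -2.01 for SCEL (SE 0.0719, limma adjusted p = 7.89e-16), 0.91 for ZBED2 (SE 0.0661, adjusted p = 1.08e-10) and 1.93 for LINC01133 (SE 0.143, adjusted p = 1.35e-10), beside a median of 0.09 over all genes. For TMEM255A, described only, it was 0.20 (SE 0.0877), and 0.11 to 0.35 over the other settings and left-out libraries. For SCEL, ZBED2 and LINC01133, the averaged response of HCC4006 cells had the direction of that of PC9 cells and was larger.

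Levels over the 4 groups of a line also differed between HCC4006 and PC9. SCEL was higher in HCC4006, by 1.45 on the log2 scale (SE 0.0360, limma adjusted p = 1.05e-19). ZBED2, at -2.32 (SE 0.0330, adjusted p = 6.41e-24), and LINC01133, at -0.33 (SE 0.0713, adjusted p = 0.000216), were lower in HCC4006. TMEM255A, described only because of the filter, was also lower there, at -1.27 (SE 0.0438). With pseudocounts of 0.1 and 0.01 these differences were -2.12 and -2.33 for TMEM255A and -0.51 and -0.53 for LINC01133. Of all 11842 genes, 44.6% were higher and 45.5% lower in HCC4006. The SCEL level in HCC4006 was 6.47 times that in PC9 in YAP1 KO DMSO and 6.31 times in CTRL DMSO cells, and 1.45 and 1.55 times in YAP1 KO OT and CTRL OT cells. For ZBED2 the ratio of HCC4006 to PC9 was 0.129 in YAP1 KO OT, 0.469 in CTRL OT, 0.0651 in YAP1 KO DMSO and 0.141 in CTRL DMSO cells. LINC01133 was not lower in HCC4006 in every group. Its ratio was 2.64 in YAP1 KO OT and 0.991, with overlapping libraries, in CTRL OT cells, against 0.336 in YAP1 KO DMSO and 0.279 in CTRL DMSO cells.

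The 4 genes did not vary together as 1 pattern. After the mean of each line was subtracted, Pearson's r over the 24 libraries, on log2(FPKM + 1), was 0.81 for ZBED2 with LINC01133, 0.70 for ZBED2 with TMEM255A, 0.48 for TMEM255A with LINC01133 and 0.32 for SCEL with TMEM255A. SCEL had r of -0.65 with LINC01133 and -0.29 with ZBED2. These are descriptions over 8 groups of 3 libraries that share line, genotype and treatment, not over independent conditions. Within PC9 alone ZBED2 and LINC01133 had r of 0.99 over 12 libraries, and within HCC4006 alone 0.76. SCEL and LINC01133 had r of 0.19 within PC9 and -0.86 within HCC4006.

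Among 11723 genes kept in both lines, the genes most like each of the 4 were ranked by the same r. This r takes in the YAP1 KO minus CTRL differences that chose the 4 genes. Likeness to a gene of the YAP signature is thus not independent of that choice. Among those most like SCEL were POLR2L (0.98), an RNA polymerase subunit, PRPS1 (0.98), ACSL3 (0.98) and CBWD5 (0.97), and most opposite were PRKCD (-0.99), a protein kinase C, and SLC43A2 (-0.99). The genes nearest to TMEM255A were TINAGL1 (0.97), SERPINB7 (0.92), REXO2 (0.92), ZP3 (0.91) and ALDOC (0.91), with ID1 (-0.95), an inhibitor of helix-loop-helix factors, and OASL (-0.92) at the other end. TINAGL1, a matricellular protein, averaged 69.1 FPKM in YAP1 KO OT and 113 in CTRL OT cells of HCC4006, and 49.8 and 83.1 FPKM in the same groups of PC9. ZBED2 was closest to AMOTL2 (0.98), an angiomotin family gene of the YAP signature, and then to FSTL1 (0.97), DYSF (0.96), LAYN (0.96) and RUSC2 (0.96), and most opposite to UQCRC2 (-0.96) and YME1L1 (-0.95). AMOTL2 averaged 12.7 FPKM in YAP1 KO OT and 38.8 in CTRL OT cells of HCC4006, and 21.4 and 33.0 FPKM in the same groups of PC9. LINC01133 was closest to SPATS2L (0.99), SP100 (0.98), a nuclear body protein, TRIM29 (0.98), ACAA1 (0.98) and GSTP1 (0.97), and most opposite to PLLP (-0.98) and PTHLH (-0.98), which encodes parathyroid hormone-related protein. TRIM29 averaged 11.3 FPKM in YAP1 KO OT and 9.78 in CTRL OT cells of HCC4006, and 126 and 245 FPKM in the same groups of PC9. With a pseudocount of 0.1, 20 of the 28 places in these rankings were kept and 8 were not.

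SCEL went against most genes of its own pathway in the response to OT. Of 50 other genes of the cornified envelope and squamous differentiation, 17 were tested in HCC4006, of which 15 rose with OT and 2, KRT10 and PKP3, fell (median 0.86 on the log2 scale). In PC9, 23 were tested, of which 14 rose, 5 fell and 4 did not pass (median 0.36). Of all tested genes, 48.6% rose and 39% fell with OT in HCC4006 (median 0.10). The shares in PC9 were 38.4% and 44.1% (median -0.03). KRT16, a keratin of activated keratinocytes, rose by 3.22 in HCC4006 and 1.54 in PC9, and KRT4, a keratin of mucosal epithelia, by 1.66 and 0.98. GRHL3, a transcription factor of epidermal barrier formation, rose by 2.06 in HCC4006, and the protease KLK7 by 1.58 and KRT13 by 1.20 in PC9, while KRT6A fell by 1.22 in PC9. Under OT, YAP1 KO against CTRL gave 4 higher, 7 lower and 6 not passed in HCC4006 (median -0.15, beside 0.06 over all genes) and 5 higher, 11 lower and 7 not passed in PC9 (median -0.03, beside 0.02), where 27.2% and 28.4% of all tested genes were higher and 16.4% and 25.2% lower. With median-of-ratios scaling 3 were higher in PC9. Under DMSO it gave 2 higher, 5 lower and 10 not passed in HCC4006 (median -0.01, beside 0.02), where 9.2% of all tested genes were higher and 8.65% lower. In PC9 under DMSO it gave 5 higher, 13 lower and 5 not passed (median -0.21, beside 0.01), where 19.8% were higher and 20% lower. Without any 1 library, the DMSO counts were 0 to 4 higher and 4 to 6 lower in HCC4006, and 3 to 5 higher and 13 lower in PC9. KRT16 fell in YAP1 KO cells by 1.39 under OT and 0.96 under DMSO in HCC4006, and by 0.80 and 0.74 in PC9.

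Genes of the IRF1 and interferon response were mostly higher with OT, as was ZBED2. Of 30 such genes, 23 were tested in HCC4006, of which 21 rose and 2 fell (median 1.52). In PC9, 22 were tested, of which 19 rose, 2 fell and 1 did not pass (median 0.94). Over all tested genes, 48.6% rose and 39% fell in HCC4006, and 38.4% rose and 44.1% fell in PC9. IRF1, the transcription factor itself, rose by 1.62 in HCC4006 and 1.58 in PC9. The antiviral GTPase gene GBP2 rose by 3.21 and 2.17, the immunoproteasome subunit PSMB10 by 2.65 and 1.17, and STAT2, which carries the interferon signal, by 1.91 and 1.36. The chemokine CXCL11 rose by 2.75 and IFI27 by 2.46 in HCC4006. ZBED2, at 1.92 and 1.01, lay inside the range of these genes in both lines. That range is wide and takes in genes that fell, so it does not set ZBED2 apart from other genes. Under OT, YAP1 KO against CTRL gave 9 higher and 4 lower in HCC4006, and 8 higher and 7 lower in PC9. Of all tested genes, 27.2% and 28.4% were higher and 16.4% and 25.2% lower. Under DMSO the list had 1 higher and 8 lower in HCC4006, and 2 higher and 11 lower in PC9. There 9.2% and 19.8% of all tested genes were higher and 8.65% and 20% lower. ZBED2 was lower in YAP1 KO cells in both treatments of both lines.

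**Figure D4:**
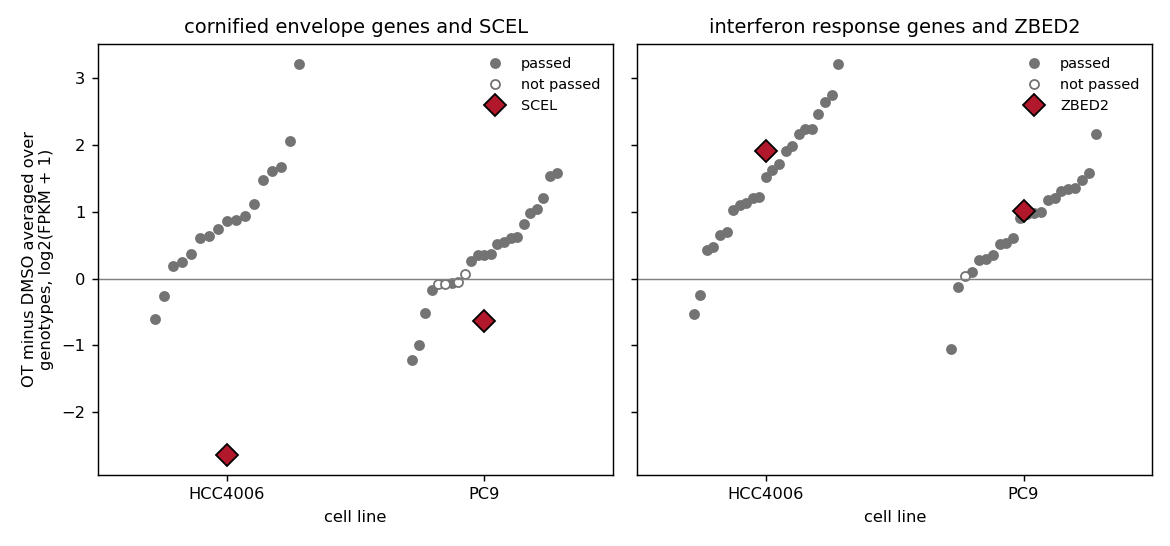
OT minus DMSO averaged over genotypes, log2(FPKM + 1), for each tested gene (grey points, filled where limma's adjusted p was under 0.05) of the cornified envelope list with SCEL (left) and of the interferon response list with ZBED2 (right), in HCC4006 and PC9. SCEL, at -2.65, lies below all 17 envelope genes tested in HCC4006, where the lowest is KRT10 at -0.60, and ZBED2 lies within the wide range of the interferon response genes.

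Relatives of the 4 genes gave mixed results. Of 8 other ZBED genes, 7 were tested in HCC4006, of which 5 rose with OT, 0 fell and 2 did not pass, and 6 in PC9, of which 3 rose and 2, ZBED4 and ZBED5, fell, where 48.6% of all tested genes rose in HCC4006, and 38.4% rose and 44.1% fell in PC9. ZBED6CL rose by 0.32 in HCC4006 and 1.29 in PC9, ZBED6 by 0.77 and 0.38, and ZBED1 by 0.52 and 0.43. Under OT, 3 of these relatives were higher and 1 lower in YAP1 KO cells of PC9, and 2 higher and 0 lower in HCC4006. Over all tested genes 28.4% and 27.2% were higher there and 25.2% and 16.4% lower. In PC9, ZBED6CL averaged 6.37 FPKM in YAP1 KO against 14.4 in CTRL cells under OT, and 2.36 against 4.63 under DMSO. TMEM255B, the paralogue of TMEM255A, averaged 2.27 ± 0.744 FPKM in YAP1 KO OT and 3.62 ± 0.313 in CTRL OT cells of HCC4006, and 1.35 ± 0.222 and 0.711 ± 0.0568 FPKM in the same groups of PC9 (SD, n = 3 each). Under OT it was lower in YAP1 KO cells of HCC4006, at -0.52 (limma adjusted p = 0.0126), and higher in those of PC9, at 0.45 (adjusted p = 0.00480). Without replicate 1 of HCC4006 YAP1 KO OT its HCC4006 difference was -0.36 (adjusted p = 0.0520). The AP-1 subunits are not relatives of the 4 genes, but their motif was among those searched. Of them, 4 of 6 tested rose and 1, FOSL1, fell in HCC4006, and 4 of 7 rose and 3 fell in PC9. Without replicate 2 of HCC4006 YAP1 KO OT, 2 fell in HCC4006. FOSL1 fell by 3.80 in HCC4006 and 3.49 in PC9, ATF3 rose by 2.53 and 1.26, FOSL2 by 1.34 and 0.25, and JUNB by 0.76 and 1.14. Any part of AP-1 in the levels of the 4 genes was not tested.

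Genes that share the annotated span of the 4 could share reads with them, since no source used here says whether the authors counted by strand. CD96, whose span overlaps ZBED2, reached at most 0.1004 FPKM in any library, and SLAMF9, whose span overlaps LINC01133, at most 1.37 FPKM. ZBTB33, whose span overlaps TMEM255A, had 9.58 to 23.1 FPKM, above TMEM255A in every library, so TMEM255A values carry that uncertainty. ZBTB33 means in YAP1 KO against CTRL cells of HCC4006 were 23.0 against 18.1 FPKM under OT and 11.7 against 10.9 under DMSO. The PC9 means were 12.7 against 10.1 FPKM under OT and 14.5 against 11.5 under DMSO. The part of ZBTB33 reads in TMEM255A values was not tested. SCEL-AS1, an antisense RNA annotated within SCEL, was not analysed here. The nearest genes with a row on either side were MYCBP2, at 1.12 to 2.41 FPKM, and SLAIN1, at 0.251 to 0.899 FPKM, for SCEL, which itself reached 39.1 FPKM. For LINC01133 they were IGSF9, at 1.74 to 7.05 FPKM, and PIGM, at 1.35 to 6.33 FPKM, and for ZBED2 the gene PVRL3, at 2.60 to 8.06 FPKM, and PLCXD2, at 0.192 to 1.46 FPKM.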

How the data were processed

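The authors deposited FPKM in 1 table of 25365 gene rows and 24 libraries. Per the submitters' processing notes, the tools were STAR 2.5.1b, DESeq2 1.10.1 and Cufflinks 2.2.1 and the builds hg19 and GRCh37, with no role or order, and no source used here gives the annotation. Column names give untreated cells where the labels give DMSO, and 4 rows with a repeated symbol were left out. FPKM are not counts and absolute depth is unknown, so no count model or counting interval was used, and relative depth was taken from how much 1 read adds to a low value.

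Genes with at least 1 FPKM in at least 3 of a line's 12 libraries were tested on log2(FPKM + 1), which understates the change of low genes, with limma 3.58.1 in R 4.3.3 (trended moderation, two-sided, Benjamini-Hochberg adjustment over all genes, threshold 0.05). Group means were fitted per line, with 8 residual degrees of freedom, or over 24 libraries for genes kept in both lines, with 16. The tests were tried on simulated data in which far fewer genes changed than were called with OT here, so nothing is read from that trial. The 4 genes, the gene lists and the tests were chosen with earlier results of these data known. The 4 genes were tested only on contrasts that take nothing from YAP1 KO minus CTRL. TMEM255A, which in HCC4006 passed the filter only through its highest group, was tested on the PC9 OT response alone. For HCC4006 CTRL OT and CTRL DMSO, libraries with the same number correlated in their deviations from the group means at 0.134 to 0.146. Other pairs of groups reached -0.264 and 0.236, so this does not show that dishes were paired. The fit with replicate number as a block is an alternative.

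By rule, the text names the 4 genes, YAP1, CTGF, the 5 most and 2 least correlated genes of each, genomic neighbours, TMEM255 and ZBED relatives and up to 6 genes per list by OT effect, and KRT10 and PKP3, named after their values were seen. A gene correlated with SCEL is not reported here. The squamous marker KRT5 and other cell type markers came from a fixed list. Alternatives were pseudocounts of 0.1 and 0.01, no filter, a filter at 5 FPKM, median-of-ratios and same-sum scaling, replicate number as a block, and leaving out each library.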

Additional observations from a re-analysis of the deposited data

Results flagged for a closer look

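The difference in the averaged OT response between HCC4006 and PC9 passed limma's test of the difference itself for SCEL, LINC01133 and ZBED2, and this drew attention to them. On the log2 scale, HCC4006 minus PC9 was -2.01 for SCEL, 1.93 for LINC01133 and 0.91 for ZBED2. A difference of some size between the lines was common among all genes, with 44.3% higher and 30.4% lower.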

How the results depend on the processing

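Under the other settings tried, the averaged OT response and the level difference between lines of SCEL, ZBED2 and LINC01133 kept their direction and their call. The HCC4006 OT response ranged from -2.97 to -2.46 for SCEL, 1.81 to 2.41 for ZBED2 and 3.09 to 3.87 for LINC01133. TMEM255A had no HCC4006 value under the filter at 5 FPKM, where 4190 genes, in place of 6365, were higher with OT in HCC4006. With it, 3114 genes, in place of 5246, had a higher signed OT response in HCC4006 than in PC9. That filter left 4047 genes higher with OT in HCC4006 YAP1 KO cells, in place of 6080, and 3915 in CTRL cells, in place of 5894. Same-numbered libraries correlated at -0.264 to 0.161 in PC9 and -0.150 to 0.236 in HCC4006. All 3 passed 0.1 in 1 of 12 pairs of groups, and whether the numbers pair any dishes is unknown. A replicate block changed no call of the 4 genes, with SCEL at -2.65 in HCC4006, and moved no count of called genes over the whole table by over 1.5 times. Leaving out 1 library gave 677 to 1792 genes higher in HCC4006 YAP1 KO cells under DMSO, in place of 1206. Differences of genes under about 1 FPKM depend most on the pseudocount.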
